A study of Rattus norvegicus with 90 samples.

Results

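In this series, 200 transcripts of 40071 were present in rat hepatocytes and at or near 0 in the kidney and heart cells measured beside them. They were chosen by measured values. A transcript was kept if its mean level was below 0.5 TPM (a unit for a transcript's share of the library after division by its length) in each of the 6 renal-cell and 6 cardiomyocyte conditions, and the 200 with the highest mean TPM in Hepatocytes Vehicle 9 h were taken. They are called hepatocyte-only transcripts here, a name that covers these 3 cell types and no other tissue. Their levels in renal cells, in cardiomyocytes and in Vehicle 9 h were fixed by this choice and are given as description. The choice also favours transcripts that were high at 9 h, so any comparison with Vehicle 9 h was not tested. The tests of 24 h against 9 h in exposed cells used other libraries, but how far this leaning enters them was not tested.

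The hepatocytes and renal cells were primary cells of Sprague-Dawley rats, while the titles of the cardiomyocyte libraries give neither origin nor strain. There were 90 libraries of poly-A RNA, 5 in each of 18 conditions. After attachment and a further 18 h in maintenance medium, hepatocytes were kept in that medium (Vehicle) or exposed to thioacetamide-S-oxide at 0.025 mM (Low) or 0.125 mM (High) for 9 or 24 h. Renal tube epithelial cells were exposed to 0.125 or 0.500 mM and cardiomyocytes to 0.50 or 1.50 mM for the same times, each beside a vehicle group, so 4 of the 6 conditions of each of these cell types were exposed ones. The hepatocytes were bought cryopreserved, so all 6 groups went through freezing, thawing and culture before exposure. Whether they came from the same lot, thaw and plating is not given in the sources used here, nor is the number of animals behind them. The labels do not say whether the 5 libraries of a group came from separate cultures, so the p-values measure the spread between these libraries. The 24 h groups were in culture longer than the 9 h groups, so time of exposure and time in culture cannot be told apart between them. In bulk RNA, fewer cells of a type and less RNA per cell cannot be told apart.

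The hepatocyte is the main cell of the liver. It makes most plasma proteins, such as albumin, clotting factors, complement and apolipoproteins, and it holds the cytochrome P450 enzymes, the urea cycle and bile acid synthesis. Many of these products are made in few other cells, and hepatocytes taken out of the liver are known for losing them in culture. Thioacetamide is oxidised by liver enzymes to its S-oxide, which is oxidised again to a reactive product that binds proteins and lipids. The deposited tables name transcripts by Ensembl identifier and no table used here pairs these identifiers with genes, so the members are given by identifier, their functions are not stated and the label of the cells was not checked against marker genes.

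The limits of the choice cut through a continuous range. A total of 17511 transcripts were below 0.5 TPM in all 12 other conditions. In Vehicle 9 h the 200 members reached from 834.593 TPM (ENSRNOT00000008840) to 13.6718 TPM (ENSRNOT00000075988), with a median of 44.6 TPM, and the first transcript outside had 13.6362 TPM (ENSRNOT00000017675). A further 6766 transcripts were at least as high as the last member in Vehicle 9 h but over the limit in another cell type. They are used below as the other abundant transcripts. On the side of the other cells, the member nearest to the limit had 0.496 TPM in its highest condition (ENSRNOT00000004322), and the nearest transcript outside had 0.512 TPM (ENSRNOT00000000200). In the 60 renal and cardiomyocyte libraries, 4 members were listed at 0 throughout, and 87 were under 0.1 TPM in every condition. In 48 members at least 1 of these libraries was over 0.5 TPM, since the limit was set on means. The renal Vehicle 9 h library MS-124 alone had 31 members over 0.5 TPM, and over the other 59 libraries the number was 23 members.

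The members were of ordinary length. Their median was 1719 bases, from 81 to 14073 bases, against 1773 bases in the other abundant transcripts and 1281 bases over all transcripts. Kallisto, the program that made the tables, divides a read among the transcripts it matches, and a transcript with whole counts in all libraries had no divided reads. This was so for 64 of the 200 members (within 1e-06 of a whole number in all 90 libraries) and for 42.7% of all transcripts with any count. The other members share reads with similar transcripts, and their levels depend on that division.

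Of the 30 hepatocyte libraries, 29 held between 15413500 and 39608700 estimated counts, with 84.1% to 94.3% of them on transcripts. The remaining library, MS-183 of Vehicle 24 h, held 2993140, of which 8.33% were on transcripts. Its counts on the members summed to 851, and 51% of the 200 members were at 0 in it, against at most 5 members in any other hepatocyte library. Results that use Vehicle 24 h are therefore given with and without MS-183. The Vehicle 24 h libraries are numbered MS-181 to MS-185, whereas the other 25 hepatocyte libraries lie between MS-91 and MS-120. Each other group also has its own run of numbers. At 9 h these are MS-91 to MS-95 (Vehicle), MS-96 to MS-100 (Low) and MS-101 to MS-105 (High). At 24 h they are MS-111 to MS-115 (Low) and MS-116 to MS-120 (High). In every comparison of groups, whatever goes with the number and the effect of the group therefore cannot be told apart.

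The 200 transcripts together took 1.68% to 1.83% of the TPM of a library in Vehicle 9 h, with a mean of 1.73% ± 0.0605 (SD, n = 5). The share was 1.82% ± 0.0304 in Low 9 h and 1.87% ± 0.0813 in High 9 h (SD, n = 5 each). At 24 h it was 1.11% ± 0.0855 at the low dose, from 0.994% to 1.22%, and 1.06% ± 0.0639 at the high dose, from 0.995% to 1.13% (SD, n = 5 each). All 10 exposed libraries at 24 h thus lay below all 10 exposed libraries at 9 h. They also lay below the 5 of Vehicle 9 h, but the levels of that group chose the members. Vehicle 24 h was lower still, with 0.587%, 0.740%, 0.679% and 0.652% in 4 libraries and 0.0746% in MS-183, a mean of 0.547% ± 0.269 over all 5 and 0.665% ± 0.0633 over the 4 others. In the 60 renal and cardiomyocyte libraries the share was between 0.000271% and 0.00495%. The upper end was the renal library MS-124, and the other 59 libraries were at most at 0.00238%.

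**Figure D1:**
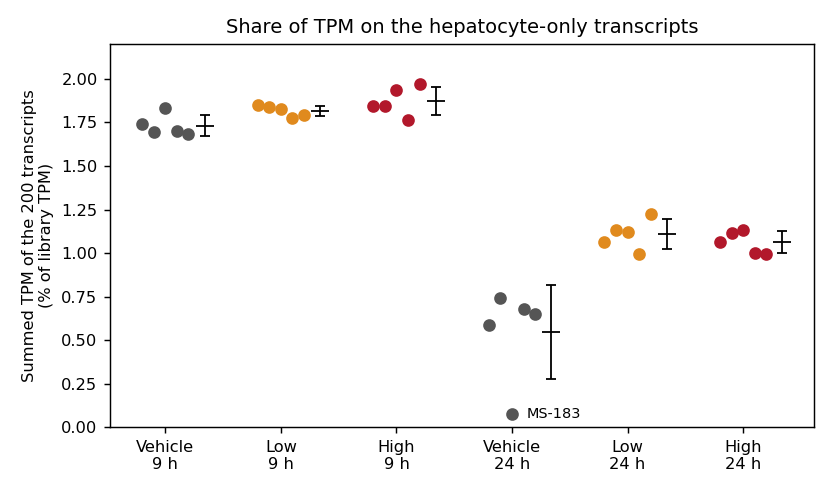
The vertical axis is the summed TPM of the 200 hepatocyte-only transcripts as a percent of the library's TPM, for the 6 hepatocyte groups. Each point is 1 library in order of its number, and the bar beside each group gives the mean and SD of its 5 libraries. The 9 h libraries lie between 1.68% and 1.97%, the exposed 24 h libraries between 0.994% and 1.22%, and the Vehicle 24 h libraries at or below 0.740%.

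The spread among replicate libraries was small for the median member outside Vehicle 24 h and large for some members. The median coefficient of variation of a member's TPM over 5 libraries was 8.27% in Vehicle 9 h, 6.44% in Low 9 h, 8.62% in High 9 h, 11.02% in Low 24 h and 13.8% in High 24 h. In Vehicle 24 h it was 56.7%, and 14.01% without MS-183. The largest coefficient of any member was 54.5% in Vehicle 9 h, 84.5% in Low 9 h, 110.5% in High 9 h, 65.4% in Low 24 h and 75.9% in High 24 h. The 10 highest members took 25.2% of the members' TPM in Vehicle 9 h, 23.3% in Low 24 h and 21.2% in High 24 h, but 42.2% in Vehicle 24 h without MS-183. With that library left out, Vehicle 24 h had the lowest mean of the 6 groups in 80% of the 200 members and the highest in 9. High 9 h had the highest mean in 109 members. Among the 4 exposed groups, the highest mean was at 9 h in 79% of the members, in Low 9 h for 42 of them and in High 9 h for the others. None of these rankings was counted over all transcripts, and the 6 groups include Vehicle 9 h, which chose the members. The 10 highest members of Vehicle 24 h include ENSRNOT00000012293 (852 bases), picked after its values were seen, which had a mean of 50.02 TPM in Vehicle 9 h. In Vehicle 24 h it had 590.4, 844, 795 and 671 TPM, and 75.4 TPM in MS-183, and it was between 31.1 and 111.9 TPM in the 10 exposed libraries at that time.

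**Figure D2:**
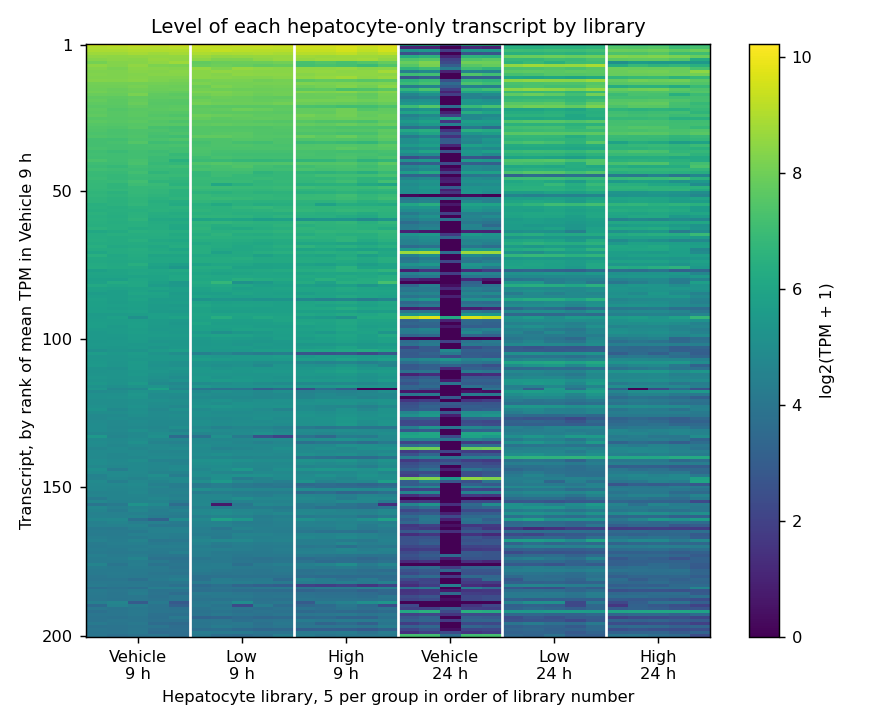
Each row is 1 of the 200 transcripts in order of its mean TPM in Vehicle 9 h, each column is 1 hepatocyte library, and the colour is log2(TPM + 1). Most rows are darker in the 24 h groups than in the 9 h groups, and the dark column in Vehicle 24 h is MS-183, where 51% of the transcripts are at 0. Single bright rows in Vehicle 24 h are transcripts that are higher there, of which 8 have more than 200% of their Vehicle 9 h level without MS-183.

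The first question was whether the hepatocyte-only transcripts changed between 9 and 24 h of exposure at the low dose. Neither group was used to choose the members. Low 9 h lay close to Vehicle 9 h, however, with the median member at 105.4% of its level there. The choice may thus lean this comparison toward decreases, and how far was not tested. The mean TPM at 24 h was below that at 9 h in 79% of the 200, and the median member kept 60.7% of its 9 h level, with quartiles of 45.8% and 92.5%. Less than 50% was kept by 64 members and less than 25% by 17. Each comparison was tested with the quasi-likelihood test of edgeR on the estimated counts of 18261 transcripts, and a transcript was called if its adjusted p was at most 0.05 and its natural-log fold change at least 0.41, which is 1.51-fold. Of the 200 members, 198 could be tested.

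At the low dose, 59% of the members were called lower at 24 h than at 9 h and 12 members (6%) were called higher, where 6.39% of all transcripts tested were called lower and 8.42% higher. Of the 6766 other abundant transcripts, 4.79% were called lower and 4.01% higher. The median log2 fold change was -0.73 over the members tested and 0.01 over all transcripts tested. The 5 libraries at 24 h all lay below the 5 at 9 h in 65% of the members (17.9% of all transcripts) and above them in 10% (17.3% of all transcripts). A total of 64 members (32%) were called lower by at least 2-fold, against 2.71% of all transcripts, and 17 (8.5%) by at least 4-fold, against 0.778%. By contrast, 4 members (2%) were called higher by at least 2-fold, against 3.67% of all transcripts.

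The largest decrease was that of ENSRNOT00000008840, a transcript of 486 bases and the highest member of all. Its level was 829, 856, 988, 935 and 831 TPM in the Low 9 h libraries and 55.9, 55.4, 61.04, 59.5 and 63.8 TPM at 24 h. The groups were far apart, and the log2 fold change was -3.89 ± 0.06 (SE, edgeR adjusted p = 1.38e-11). ENSRNOT00000085439, of 652 bases, had 110.2, 128.5, 114.7, 109 and 112.7 TPM at 9 h and 8.61, 11.6, 10.8, 12.7 and 11.98 TPM at 24 h. Its log2 fold change was -3.37 ± 0.09 (SE, edgeR adjusted p = 4.78e-10), again without overlap.

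In the opposite direction, ENSRNOT00000012041 had 26.2, 25.9, 24.1, 25.1 and 24.7 TPM in Low 9 h and 95.8, 99.2, 95.9, 101.7 and 93.6 TPM in Low 24 h. It rose by a log2 fold change of 1.94 ± 0.03 (SE, edgeR adjusted p = 2.08e-11). ENSRNOT00000021861 stood at 13.9, 14.6, 13.0, 14.1 and 13.4 TPM at 9 h and at 43.8, 45.5, 49.7, 50.2 and 49.9 TPM at 24 h, a log2 fold change of 1.79 ± 0.04 (SE, edgeR adjusted p = 3.01e-10). Both were low among the members at 9 h, at ranks 140 and 192 of the 200 in Vehicle 9 h.

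The same comparison at the high dose used a separate set of 10 libraries, under the same limit of the choice. The mean TPM at 24 h was below that at 9 h in 86.5% of the members, and the median member kept 61.5% of its 9 h level, with quartiles of 45.4% and 78.2%. Less than 50% was kept by 58 members and less than 25% by 11. With edgeR, 65.5% of the members were called lower and 2.5% (5 members) higher, against 6.9% and 8.3% of all transcripts tested. Of the other abundant transcripts, 5.25% were called lower and 3.59% higher. The median log2 fold change was -0.79 over the members and 0.02 over all transcripts. The libraries at 24 h all lay below those at 9 h in 74% of the members (15.2% of all transcripts) and above them in 4% (14.8% of all transcripts).

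ENSRNOT00000008840 again had the largest decrease. It had 999, 1010.2, 1006, 1089.7 and 1197 TPM in High 9 h and 104.7, 100.8, 109.7, 88.0 and 110.3 TPM in High 24 h, a log2 fold change of -3.42 ± 0.11 (SE, edgeR adjusted p = 1.87e-08). ENSRNOT00000041367, of 1000 bases, went from 78.5, 81.4, 92.4, 84.2 and 98.8 TPM to 12.5, 11.5, 13.8, 7.74 and 9.89 TPM, a log2 fold change of -3.05 ± 0.15 (SE, edgeR adjusted p = 2.45e-07). Neither showed any overlap between the times.

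The transcripts that rose most at the low dose also did so at the high dose. ENSRNOT00000021861 had 10.4, 11.1, 10.6, 9.88 and 11.2 TPM in High 9 h and 62.7, 65.9, 66.3, 67.7 and 58.3 TPM in High 24 h, a log2 fold change of 2.50 ± 0.05 (SE, edgeR adjusted p = 3.75e-10). ENSRNOT00000012041 went from 14.4, 13.2, 11.3, 11.2 and 13.99 TPM to 70.3, 71.7, 68.2, 78.9 and 74.9 TPM, a log2 fold change of 2.42 ± 0.08 (SE, edgeR adjusted p = 2.79e-08). The 3 other members called higher had log2 fold changes between 0.67 and 1.53.

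Since the doses share no libraries in these comparisons, their calls can be set side by side. A total of 107 members were called lower at both doses, which is 90.7% of those lower at the low dose and 81.7% of those lower at the high dose. Over all transcripts tested, 3.58% were called lower at both doses, which is 56.04% and 51.9% of the same lists. By at least 2-fold at both doses, 46 members (23%) and 1.38% of all transcripts were called lower. All 5 members called higher at the high dose were also called higher at the low dose, 41.7% of the 12. Over all transcripts tested, 4.22% were called higher at both doses, which is 50.2% of those higher at the low dose and 50.9% of those higher at the high dose. No member was called lower at the low dose and higher at the high dose, and 1 was called higher at the low dose and lower at the high dose. Of the 198 members tested, 45 were called at neither dose (22.5% of the 200), against 77.9% of all transcripts.

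**Figure D3:**
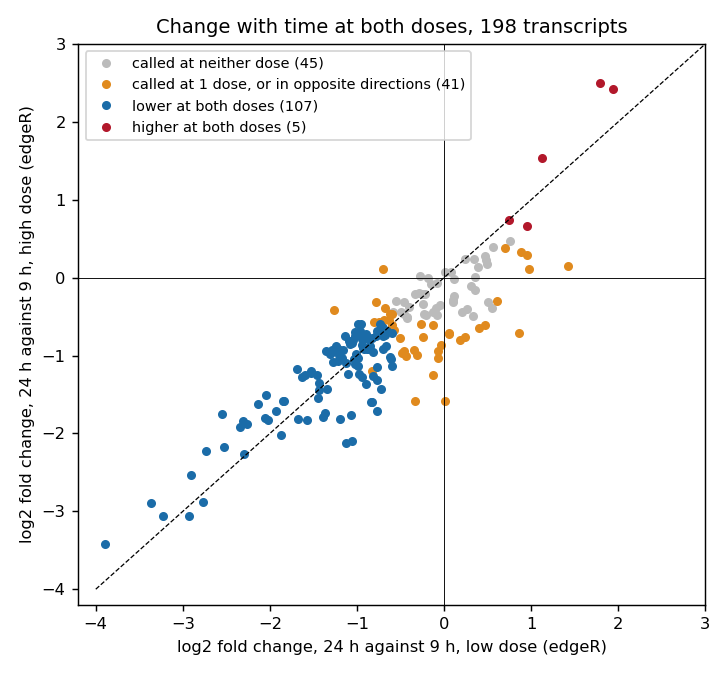
Each point is 1 of the 198 transcripts tested, with its log2 fold change from 9 to 24 h at the low dose on the horizontal axis and at the high dose on the vertical axis (edgeR), coloured by its calls. Of these, 107 are called lower at both doses and 5 higher at both, and points under the dashed line of equal change fell further, or rose less, at the high dose.

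Taking the members in 4 sets of 50 by their rank in Vehicle 9 h, from highest to lowest, 31, 37, 25 and 25 were called lower in the low-dose cells and 31, 36, 33 and 31 in the high-dose cells. The shares over all transcripts tested, of any level, length or read sharing, were 6.39% and 6.9%, and were not split in the same way. Split at the median length, 64 of the shorter and 54 of the longer members were called lower in low-dose cells, and 67 and 64 in high-dose cells. The shorter members kept a median of 58.3% (low dose) and 59.8% (high dose), and the longer members 64.9% and 63.3%. Among the 64 members with whole counts, 38 were called lower in low-dose cells (59.4%) and 43 in high-dose cells (67.2%), and the median level kept was 60.3% and 60.2%.

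The next comparison, of the high with the low dose at 9 h, had few calls. The median member in High 9 h was at 103.9% of its Low 9 h level, and 3 members were below 50%. With edgeR, 8 members were called lower at the high dose and 1 higher, where 3.48% and 3.51% of all transcripts were called, and 1.80% and 2.01% of the other abundant transcripts. The median log2 fold change was 0.19 over the members and -0.00 over all transcripts. The high-dose libraries all lay above the low-dose libraries in 60 members (11.7% of all transcripts) and below them in 21 (11.7% of all transcripts), so that many members were higher at the high dose by less than the 1.51-fold limit. With limma on log2(TPM + 0.1), the median of all transcripts moved to -0.13 and that of the members to 0.05, a distance of 0.18 between them against 0.19 with edgeR, and the members called were 12 lower and 0 higher (6.44% and 2.51% of all transcripts).

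The strongest difference at 9 h was that of ENSRNOT00000028781, with 21.1, 24.7, 19.5, 18.2 and 19.6 TPM in Low 9 h and 5.72, 4.99, 5.57, 3.91 and 5.81 TPM in High 9 h. The groups did not overlap, and the log2 fold change was -1.86 ± 0.11 (SE, edgeR adjusted p = 1.29e-06). ENSRNOT00000032280 had 10.998, 12.8, 9.31, 7.96 and 7.36 TPM in low-dose cells and 3.06, 2.77, 3.33, 2.03 and 3.29 TPM in high-dose cells, a log2 fold change of -1.61 ± 0.17 (SE, edgeR adjusted p = 5.19e-05). The only member called higher was ENSRNOT00000016540, with 43.9, 42.7, 45.4, 50.9 and 50.2 TPM in low-dose cells and 61.8, 63.6, 68.9, 77.8 and 65.9 TPM in high-dose cells. Its log2 fold change was 0.67 ± 0.08 (SE, edgeR adjusted p = 0.000106), just past the limit, and it was not called with limma on log2(TPM + 1) or on log2(TPM + 0.1).

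At 24 h the doses differed in more members and in both directions. The median member in High 24 h was at 103.5% of its Low 24 h level, with quartiles of 68.6% and 131.9%. With edgeR, 37 members were called lower at the high dose and 24 higher, against 7.81% and 6.43% of all transcripts tested and 4.82% and 3.99% of the other abundant transcripts. The libraries did not overlap in 43 members that were lower (15.4% of all transcripts) and 49 that were higher (14.1% of all transcripts). With limma on log2(TPM + 1), 38 members were called lower and 12 higher, against 5.42% and 3.4% of all transcripts. The median log2 fold change was 0.10 over the members and 0.00 over all transcripts. By rank in Vehicle 9 h, in sets of 50 from highest to lowest, 8, 6, 10 and 13 were called lower and 11, 3, 5 and 5 higher.

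ENSRNOT00000015732, rank 8 in Vehicle 9 h, had 369, 432, 389.6, 401 and 486 TPM in Low 24 h and 79.9, 113.2, 96.9, 104.2 and 85.6 TPM in High 24 h. It had the largest difference of these, with a log2 fold change of -2.07 ± 0.10 (SE, edgeR adjusted p = 8.63e-07). ENSRNOT00000028781 was lower at the high dose at this time as well, with 34.1, 36.9, 32.4, 33.2 and 36.6 TPM in low-dose cells and 7.33, 10.96, 7.74, 13.0 and 7.29 TPM in high-dose cells, a log2 fold change of -1.86 ± 0.14 (SE, edgeR adjusted p = 5.90e-06). Of the 8 members lower at the high dose at 9 h, 7 were also lower at 24 h (87.5% of the 8 and 18.9% of the 37). Over all transcripts tested, 1.79% were called lower at both times, which is 51.3% and 22.8% of the same lists.

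Among the members higher at the high dose at 24 h, ENSRNOT00000076813 had 9.94, 9.31, 10.1, 11.9 and 10.6 TPM in Low 24 h and 20.1, 20.7, 21.9, 20.3 and 24.7 TPM in High 24 h, a log2 fold change of 1.12 ± 0.12 (SE, edgeR adjusted p = 3.66e-05). ENSRNOT00000016883, the third highest member, had 128.6, 125.9, 133.2, 129.7 and 138.3 TPM in low-dose cells and 235, 231, 247, 207 and 243 TPM in high-dose cells. Its log2 fold change was 0.88 ± 0.07 (SE, edgeR adjusted p = 1.13e-05). Both had fallen from 9 to 24 h at both doses, by 2.55 and 2.14 on the log2 scale in low-dose cells and by 1.75 and 1.62 in high-dose cells (edgeR adjusted p = 1.38e-10 and 2.26e-11, and 5.49e-07 and 4.26e-07).

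**Figure D4:**
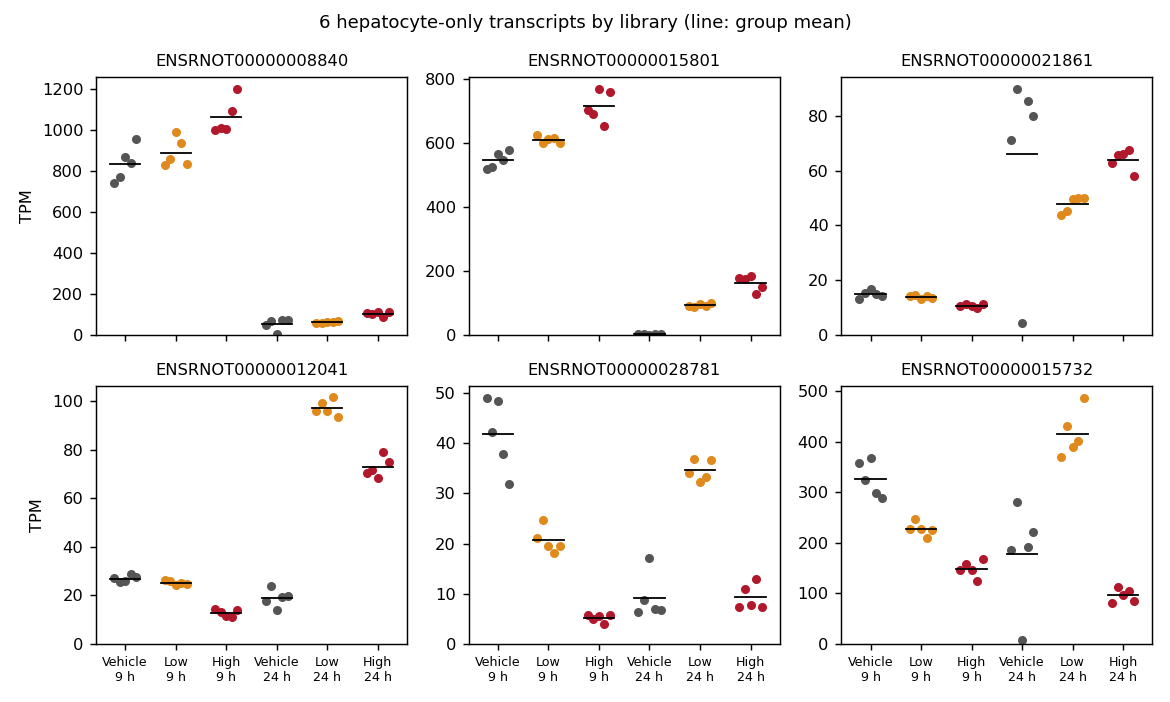
Each panel shows 1 transcript, with TPM on a linear vertical axis from 0 and the 6 hepatocyte groups on the horizontal axis. Points are libraries and lines are group means. ENSRNOT00000008840 and ENSRNOT00000015801 are lower in every 24 h library than in any 9 h library, ENSRNOT00000021861 and ENSRNOT00000012041 are higher in the exposed 24 h libraries than in the 9 h libraries, and ENSRNOT00000028781 and ENSRNOT00000015732 are lower at the high than at the low dose.

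Whether the difference between the doses itself changed with time was tested in 1 fit of the 20 exposed libraries. With edgeR, 27 members had a difference of the high from the low dose that was lower at 24 h than at 9 h, and 2 had a higher one, against 2.56% and 1.45% of all transcripts and 1.98% and 0.872% of the other abundant transcripts. The median over the members was -0.04 and that over all transcripts 0.01. With limma on log2(TPM + 1), both medians were 0.06, so the sign of the members' median depended on the scale. ENSRNOT00000015732 was among the 27, with a log2 value of -1.59 ± 0.12 (SE, edgeR adjusted p = 3.23e-07): it rose from 9 to 24 h at the low dose, by a log2 fold change of 0.87 ± 0.07, and fell by 0.71 on the log2 scale at the high dose (SE 0.10), with edgeR adjusted p of 1.72e-06 and 0.00022. The 2 members in the other direction were ENSRNOT00000021861, at 0.70 ± 0.06 (SE, edgeR adjusted p = 8.34e-07), and ENSRNOT00000076813, at 0.79 ± 0.12 (SE, edgeR adjusted p = 0.000219).

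Next, the exposed cells were set against Vehicle 24 h. Both comparisons use the same 5 vehicle libraries, MS-183 among them, and the number of these libraries goes with the group as described above. In Low 24 h the median member was at 308% of its Vehicle 24 h level, or 255% without MS-183. With edgeR, 51.5% of the members were called higher and 5.5% (11 members) lower, where 9.82% and 6.76% of all transcripts were called, and 9.43% and 4.52% of the other abundant transcripts. Without MS-183, 68.5% of the members were called higher and 8% (16 members) lower, against 19% and 16% of all transcripts. Every member called with all libraries was also called, in the same direction, without MS-183. The median log2 fold change over the members was 1.22, and 1.10 without MS-183, where that over all transcripts was -0.01 and 0.02. With limma on log2(TPM + 0.1) and all libraries, the median of all transcripts moved to 0.80, and that of the members was 1.57 above it. On this scale 30.5% of the members were called higher and 1.5% lower, against 6.03% and 0.816% of all transcripts.

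In High 24 h the median member was at 287% of its Vehicle 24 h level, or 250.2% without MS-183. With edgeR, 43% of the members (86) were called higher and 4.5% (9) lower, against 5.37% and 3.02% of all transcripts and 5.17% and 1.86% of the other abundant transcripts. Without MS-183, 64% were called higher and 8.5% (17 members) lower, against 14.4% and 10.9% of all transcripts, and the 86 and the 9 were among them. The median log2 fold change over the members was 1.17, and 1.13 without MS-183, and that over all transcripts was 0.03 in both. With limma on log2(TPM + 0.1) and all libraries, 20% of the members were called higher and 1% lower, against 3.03% and 0.465% of all transcripts, and the share higher was 24.5% with limma on log2(CPM + 0.5) and 26.5% with edgeR and no filter beyond 1 count, against 3.39% and 1.25% of all transcripts.

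**Figure D5:**
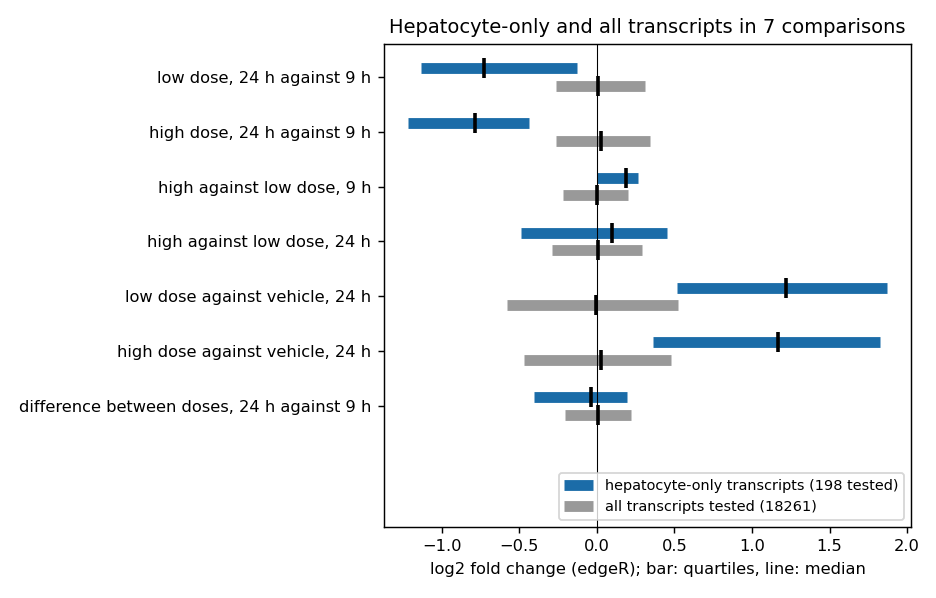
Bars span the quartiles of the log2 fold change and the black lines mark the medians, for the 198 hepatocyte-only transcripts tested and for all 18261 transcripts tested, in the 7 comparisons (edgeR, all libraries). The members' median lies at -0.73 and -0.79 for 24 h against 9 h and at 1.22 and 1.17 for the exposed cells against Vehicle 24 h, while that of all transcripts lies between -0.01 and 0.03.

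A member with a wide gap between vehicle and exposed cells was ENSRNOT00000015801, the second highest of the 200 in Vehicle 9 h. It had 519, 527, 566, 548 and 577.5 TPM in Vehicle 9 h, 624, 602, 612, 618 and 601 TPM in Low 9 h and 703, 691, 769, 653 and 760.3 TPM in High 9 h. At 24 h it had 1.13, 1.05, 1.31 and 1.03 TPM in 4 vehicle libraries and 0 in MS-183, whereas it had 87.9, 85.7, 95.3, 90.3 and 100.1 TPM in low-dose cells and 176.7, 175.3, 182.5, 126.9 and 150.1 TPM in high-dose cells. No vehicle library at 24 h came near any exposed library. Without MS-183, Low 24 h and High 24 h differed from Vehicle 24 h by log2 fold changes of 6.07 ± 0.09 and 6.94 ± 0.17 (SE, edgeR adjusted p = 3.36e-11 and 4.00e-09), and with it 6.10 ± 0.20 and 6.98 ± 0.28 (SE, edgeR adjusted p = 3.01e-07 and 2.26e-06). From 9 to 24 h of exposure it fell by 2.74 on the log2 scale in low-dose cells and by 2.22 in high-dose cells (edgeR adjusted p = 6.32e-12 and 2.36e-07).

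The highest member showed another pattern. ENSRNOT00000008840 had 45.7, 64.6, 70.0 and 72.9 TPM in the 4 other Vehicle 24 h libraries and 3.81 TPM in MS-183, beside the 55.4 to 63.8 TPM of Low 24 h and the 88.0 to 110.3 TPM of High 24 h. Without MS-183, Low 24 h and High 24 h differed from Vehicle 24 h by log2 fold changes of -0.37 ± 0.11 and 0.51 ± 0.15 (SE, edgeR adjusted p = 0.013 and 0.0164), both within the 1.51-fold limit. ENSRNOT00000076813, with 36.9, 50.8, 43.6 and 44.0 TPM in the same 4 libraries and 0 in MS-183, was lower in the exposed cells. Without MS-183 the log2 fold changes in Low 24 h and High 24 h were -2.33 ± 0.07 and -1.21 ± 0.11 (SE, edgeR adjusted p = 4.43e-09 and 1.40e-05). With MS-183, the values were -2.14 ± 0.42 and -0.999 ± 0.43 (SE, edgeR adjusted p = 0.00625 and 0.185), so that the call at the high dose rests on leaving that library out.

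With MS-183 left out, 7 members had a mean below 0.5 TPM in Vehicle 24 h, the limit that defined absence in the other cell types, and with all 5 libraries 6 did. The member that was over the limit with MS-183 was ENSRNOT00000013423, at 6.39 TPM in that library and at most 0.0493 TPM in the 4 others. Each of the 7 had a mean of at least 6.56 TPM in the 5 other hepatocyte groups. The one with the highest mean in Low 24 h, picked after its values were seen, was ENSRNOT00000014465. It had 0.522, 0.503, 0.473 and 0.304 TPM in those 4 vehicle libraries and 0 in MS-183, against 47.3, 51.7, 44.3, 48.96 and 56.9 TPM in Low 24 h. No member had a mean under 0.5 TPM in any of the 5 other hepatocyte groups, where the lowest mean was 2.07 TPM.

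Against Vehicle 9 h, whose levels chose the members, the values are description. The median member was at 105.4% of its Vehicle 9 h level in Low 9 h and at 111.2% in High 9 h, with 69.5% and 68% of the members above 100%. In Vehicle 24 h it was at 22.4%, or 25.4% without MS-183, with 94% of the members below 100% in the latter case. The ratio was under 10% in 29 members and over 200% in 8, again without MS-183.

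The 2 members that could not be tested are short transcripts with few counts. ENSRNOT00000087163, of 81 bases, had a mean of 34.8 TPM ± 12.9 in Vehicle 9 h, 12.2 ± 3.11 in Low 9 h, 4.53 ± 5.01 in High 9 h, 5.68 ± 6.02 in Vehicle 24 h, 25.9 ± 16.9 in Low 24 h and 5.43 ± 4.12 in High 24 h (SD, n = 5 each). ENSRNOT00000079017, the other, was at 0 in all 5 Vehicle 24 h libraries and at 3.60 TPM or more in every library of the 5 other groups. Its means in Vehicle, Low and High 9 h were 14.9 ± 8.14, 19.0 ± 6.65 and 24.5 ± 13.1 TPM, and those in Low and High 24 h were 22.5 ± 12.8 and 9.26 ± 4.34 TPM (SD, n = 5 each).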

How the data were processed

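Poly-A RNA libraries of rat hepatocytes, renal tube epithelial cells and cardiomyocytes were used, 90 in all. The authors deposited, for each library, estimated counts and TPM per target from Kallisto 0.42.4 against the Rnor_6.0 transcriptome, per the labels. Of 65166 targets, the 40071 transcripts were used, and the 25095 genomic intervals were left out of the tests but remain in the TPM totals. Groups came from the sample labels. The members and lists were chosen with earlier results of these data known. Planned marker and pathway lists could not be used, since no table used here pairs these identifiers with genes.

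The estimated counts, rounded to integers, were tested in R 4.3.3 with edgeR 4.0.16 (filterByExpr over the 30 hepatocyte libraries, TMM normalization, glmQLFit and glmQLFTest) on the libraries of the groups compared, with Benjamini-Hochberg adjustment over all 18261 transcripts. SE is the log2 fold change divided by the square root of F. Ratios in percent are of mean TPM. Transcripts named with a test are, for the first 4 comparisons, the 2 with the largest decrease and the 2 with the largest increase among members called, with log2 CPM averaging 3 or more and no overlap between the libraries, besides the 2 highest in Vehicle 9 h.

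Tested on simulated data for the low dose, 24 h against 9 h, with 200 of 18261 transcripts changed, edgeR recovered 175 (149 of 150 at folds of 2 and above), with 0 in the wrong direction and 9 false calls. Alternatives were DESeq2 1.42.0, upper-quartile normalization, other filters, limma 3.58.1 on log CPM or TPM, all hepatocyte groups in 1 fit, other fold limits, other TPM limits for the members and each library left out in turn. Fits without MS-183 by DESeq2 and with all groups in 1 fit were added after seeing the data. Of the named results, the alternatives followed the 15 fold changes chosen by size, call and lack of overlap in the first 4 comparisons. This choice favours values that keep their call. Named results against Vehicle 24 h and for the difference between doses were not among them.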

Additional observations from a re-analysis of the deposited data

Results flagged for a closer look

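Of 78 sets of 5 libraries examined (the members' share of TPM and the TPM of each transcript named with its values in every group), 9 held a library that stood apart from the others by Dixon's criterion, where chance gives 3.9. In 8 of the 9 the set was Vehicle 24 h and the library was MS-183. Its share of TPM on the members was 0.0746%. It was low for ENSRNOT00000021861 (4.17 TPM), ENSRNOT00000016883 (2.75 TPM), ENSRNOT00000076813 (0 TPM) and ENSRNOT00000015801 (0 TPM), and high for ENSRNOT00000028781 (17.1 TPM), ENSRNOT00000032280 (21.1 TPM) and ENSRNOT00000016540 (27.3 TPM). The remaining set was ENSRNOT00000085439 in Low 9 h, where library MS-97 had 128.5 TPM. In 29 members, the difference between the doses itself differed between 24 h and 9 h (edgeR interaction): 27 members (13.5%) were lower and 2 (1%) higher, against 2.56% and 1.45% of all transcripts.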

How the results depend on the processing

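No paired analysis was possible because the library numbers are not shared between groups. Under alternatives other than left-out libraries, 76.1% of the shares of members called were within 1.5 times the reported share and 42 were not. Of 300 values named in the first 4 comparisons, 296 kept direction and call, 0 reversed and 4 lost the call.

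Percentages of the 200 members are given as lower, then higher. A fold limit of 2 gave 32% and 2% (24 h against 9 h, low dose), 33.5% and 1.5% (high dose), 1% and 0% (high against low dose, 9 h), 7% and 1% (24 h) and 4.5% and 0% (difference between doses), fewer by its construction, against 2.71% and 3.67%, 3.11% and 3.78%, 0.958% and 1.45%, 2.76% and 2.65%, and 1.01% and 0.548% of all transcripts. Without a fold limit, high against low dose gave 13.5% and 45% at 9 h (all transcripts: 15.2% and 15.4%) and 29.5% and 32.5% at 24 h (all: 19.4% and 18.2%), and the higher shares were 14% and 4% for 24 h against 9 h in low-dose and high-dose cells (all: 22.5% and 19.2%) and 9.5% for the difference between doses (all: 5.73%). With limma on log2(TPM + 1) and on log2(TPM + 0.1), the higher shares were 0% and 0% for the doses at 9 h (all: 1.33% and 2.51%) and 2% and 2% for the difference between doses (all: 1.52% and 2.53%), and with the former 6% for the doses at 24 h (all: 3.40%). Members chosen with a TPM limit of 0.25 gave 1% higher at 9 h (all: 3.51%) and 3% for the difference between doses (all: 1.45%).

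Against Vehicle 24 h, the low dose gave 2.5% lower without a filter beyond 1 count (all: 1.46%), 2.5% and 31% with limma on log2(CPM + 0.5) (all: 2.85% and 6.24%), 1.5% lower with log2(TPM + 1) (all: 0.893%) and 1.5% and 30.5% with log2(TPM + 0.1) (all: 0.816% and 6.03%). The high dose gave 2.5% and 26.5% without that filter (all: 0.583% and 1.25%), 1.5% and 24.5% with log2(CPM + 0.5) (all: 1.16% and 3.39%), 1.5% lower with log2(TPM + 1) (all: 0.570%) and 1% and 20% with log2(TPM + 0.1) (all: 0.465% and 3.03%). It gave 7.5% lower with DESeq2 (all: 10.6%), 8% and 65.5% with all groups in 1 fit (all: 13.3% and 13.8%) and, without MS-183, 8.5% lower in 1 fit (all: 11.5%) and 8.5% with DESeq2 (all: 11.1%). The cause of these shifts was not tested.

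Of the calls over all transcripts, the share that was higher moved with limma on log2(TPM + 1) from 59.2% to 91.8% (low dose against vehicle), 64.03% to 90.3% (high dose against vehicle), 50.2% to 30.96% (doses at 9 h) and 36.1% to 54.4% (difference between doses). With log2(TPM + 0.1) it was 88.1%, 86.7%, 28.1% and 58.7% in the same order, and 64.9% against 54.6% for 24 h against 9 h at the high dose. With DESeq2 it was 48.4% and 49.0% against vehicle, and for the high dose 74.5% with log2(CPM + 0.5) and 50.9% with all groups in 1 fit. Without a fold limit it was 46.3% for the difference between doses.

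With each library left out, the members lower and higher ranged from 55% to 59.5% and 5% to 6.5% (24 h against 9 h, low dose), 61% to 66% and 2.5% to 2.5% (high dose), 2.5% to 4% and 0.5% to 1% (high against low dose, 9 h), 17% to 21% and 9.5% to 14.5% (24 h), 4% to 8% and 39.5% to 68.5% (low dose against vehicle), 2.5% to 8.5% and 29% to 64% (high dose against vehicle) and 13% to 15.5% and 1% to 1.5% (difference between doses). Over all transcripts, in the same order, they ranged from 5.94% to 6.57% and 7.72% to 8.67%, 6.37% to 7.18% and 7.47% to 8.16%, 2.94% to 3.65% and 3.02% to 3.55%, 6.95% to 8.203% and 5.62% to 6.49%, 3.87% to 16.03% and 6.49% to 19.04%, 1.47% to 10.9% and 3.10% to 14.4%, and 2.10% to 2.98% and 1.19% to 1.65%. At 9 h, 2.5% were lower without MS-97 or MS-104 (all: 3.16% and 2.94%), and 1% were higher without MS-97, MS-98, MS-100, MS-101 or MS-104. Against Vehicle 24 h in high-dose cells, 2.5% were lower without MS-116 (all: 1.54%) and 8.5% without MS-183 (all: 10.9%). On the TPM of transcripts only, the members' share differed from that reported by less than 1 SD in all 6 groups. The values of MS-183 rest on 851 counts on the members, and 8.33% of its counts were on transcripts.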
